A study of Mus musculus with 21 samples.

Results

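Integrins and laminins were followed through the gain and loss of MEK inhibitor (MEKi) resistance in 21 RNA samples of 6 murine pancreatic ductal adenocarcinoma (PDAC) cell lines, #3, #4, #6, #7, #9 and #10. The members are all genes of the deposited table whose symbol names an integrin alpha or beta chain or a laminin alpha, beta or gamma chain. This rule found 38 of the 34478 genes, 27 integrin and 11 laminin chains, and 34 of them counted as expressed (23 integrin and 11 laminin chains), which means that 3 or more samples reached a normalized count of 10. Every line was derived from a pancreatic tumor of a mouse with Ptf1awt/Cre and Trp53loxP/loxP among its alleles, in which the Cre under Ptf1a acts in cells of the developing pancreas to delete Trp53, so all states share these alleles. Parental cells had never seen the drug (6 samples). Resistant cells (6 samples) had been adapted to rising doses of the MEK inhibitor trametinib and were kept at 100 times the IC50 of their line. P12 cells (6 samples) came from resistant cells grown for 12 passages without drug, and P5 cells (3 samples, lines #3, #7 and #9) are those titled as having 5 drug-free passages. For P5 of lines #7 and #9 a second label gives 12 passages. There was 1 RNA sample of a line in a state, and the lines serve as replicates. From genome sequencing of lines #3 and #9 only, the study describes its resistant populations as grown from a clone. A resistant sample may therefore stand for few founder cells of its line.

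Integrins are receptors that join the cell to its matrix. One alpha and one beta chain pair at the membrane, and the alpha chain largely sets what is bound: Itga3, Itga6 and Itga7 bind laminins, Itga1, Itga2, Itga10 and Itga11 bind collagens, and Itga5, Itga8, Itgav and Itga2b bind ligands with the RGD motif such as fibronectin. Most alpha chains pair with Itgb1. Itga6 also pairs with Itgb4 in hemidesmosomes, the junctions that hold epithelium to its basement membrane, and Itgav pairs with Itgb3, Itgb5, Itgb6 or Itgb8. Laminins are cross-shaped trimers of an alpha, a beta and a gamma chain and form the basement membrane sheet. Laminin-332, the trimer that holds Lama3 and Lamb3, is the classical hemidesmosome ligand, and the trimers with Lama5 are the common laminins of mature epithelium.

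The table holds counts normalized by the authors with DESeq2. Their spacing put the depth at 24.1 to 42.7 M reads per sample (M, mega), and 3 reads corresponded to 2.31 to 4.07 normalized counts, a limit for counting error only. Of the low values, 37.1 to 65.7% per sample lay on the inferred steps, so these depths and read equivalents are estimates. All 10 genes of ERK output, the pathway that trametinib blocks, were called lower in resistant than in parental cells (limma, threshold given below). Of all genes 2.73% were called lower there. Between P12 and resistant cells 9 of 10 were called higher, against 1.28% of all genes. In that comparison all 10 had an unadjusted p below 0.05 (median log2 fold change 7.19), against 3821 of 19300 expressed genes. All 10 were called higher when the fit took the pairing of samples by line into account. Of 7 markers of ductal epithelium, 6 were expressed. Epcam was listed at 0 in every parental, resistant and P12 sample. The summed level of these markers was 18363 to 283578 in parental, 1693 to 210019 in resistant and 3930 to 209595 in P12 cells, with line #9 lowest in each state. Fibroblast and pericyte markers (9 of 10 expressed) summed to 133 to 26006 in parental, 1901 to 577925 in resistant and 399 to 154374 in P12 cells, and Lum was at 0 in 5 of 6 parental samples. Endothelial markers (5 of 6 genes in the table expressed) summed to 45.1 to 180, 32.8 to 2757 and 84.1 to 250 in the same order. Leukocyte markers (3 of 11 expressed) summed to 138 to 252, 215 to 2910 and 201 to 275, where Csf1r alone gave 2530 in resistant cells of line #10 and Ptprc, which marks all leukocytes, stayed between 3.02 and 20 in these states. Since these are bulk samples, fewer cells of a type and less RNA per cell cannot be told apart.

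Levels are first compared between genes as normalized counts per kilobase of annotated exon. In parental cells the highest integrin chains were Itga3 (median 6704 per kb), Itgb1 (6480), Itga6 (3584) and Itgav (1507), followed by Itga2 (1500). In resistant cells Itgb1 (median 9485 per kb), Itga3 (3760) and Itgav (2421) led, and Itga6 came to 339. Among laminins, Lama5 (median 4210 per kb), Lamc1 (2544), Lamb1 (2273) and Lamb2 (1101) were the highest chains of parental cells, and the same 4 chains led in resistant and P12 cells. The spread over lines was wide, as Itga3 ranged from 2465 to 12883 per kb in parental cells, so the order of neighbouring chains such as Itga3 and Itgb1, or Itgav and Itga2, is within that spread. In all 21 samples 18 members had at least 10 normalized counts. Itgad, Itgae, Itgax and Itgb2l, chains known from leukocytes, stayed below the expression threshold. A further 7 members (Itga8, Itga11, Itgal, Itgam, Lama1, Lama2 and Lamc3) passed it only with samples of states other than parental, so counts over the 34 members favour differences between states.

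**Figure D1:**
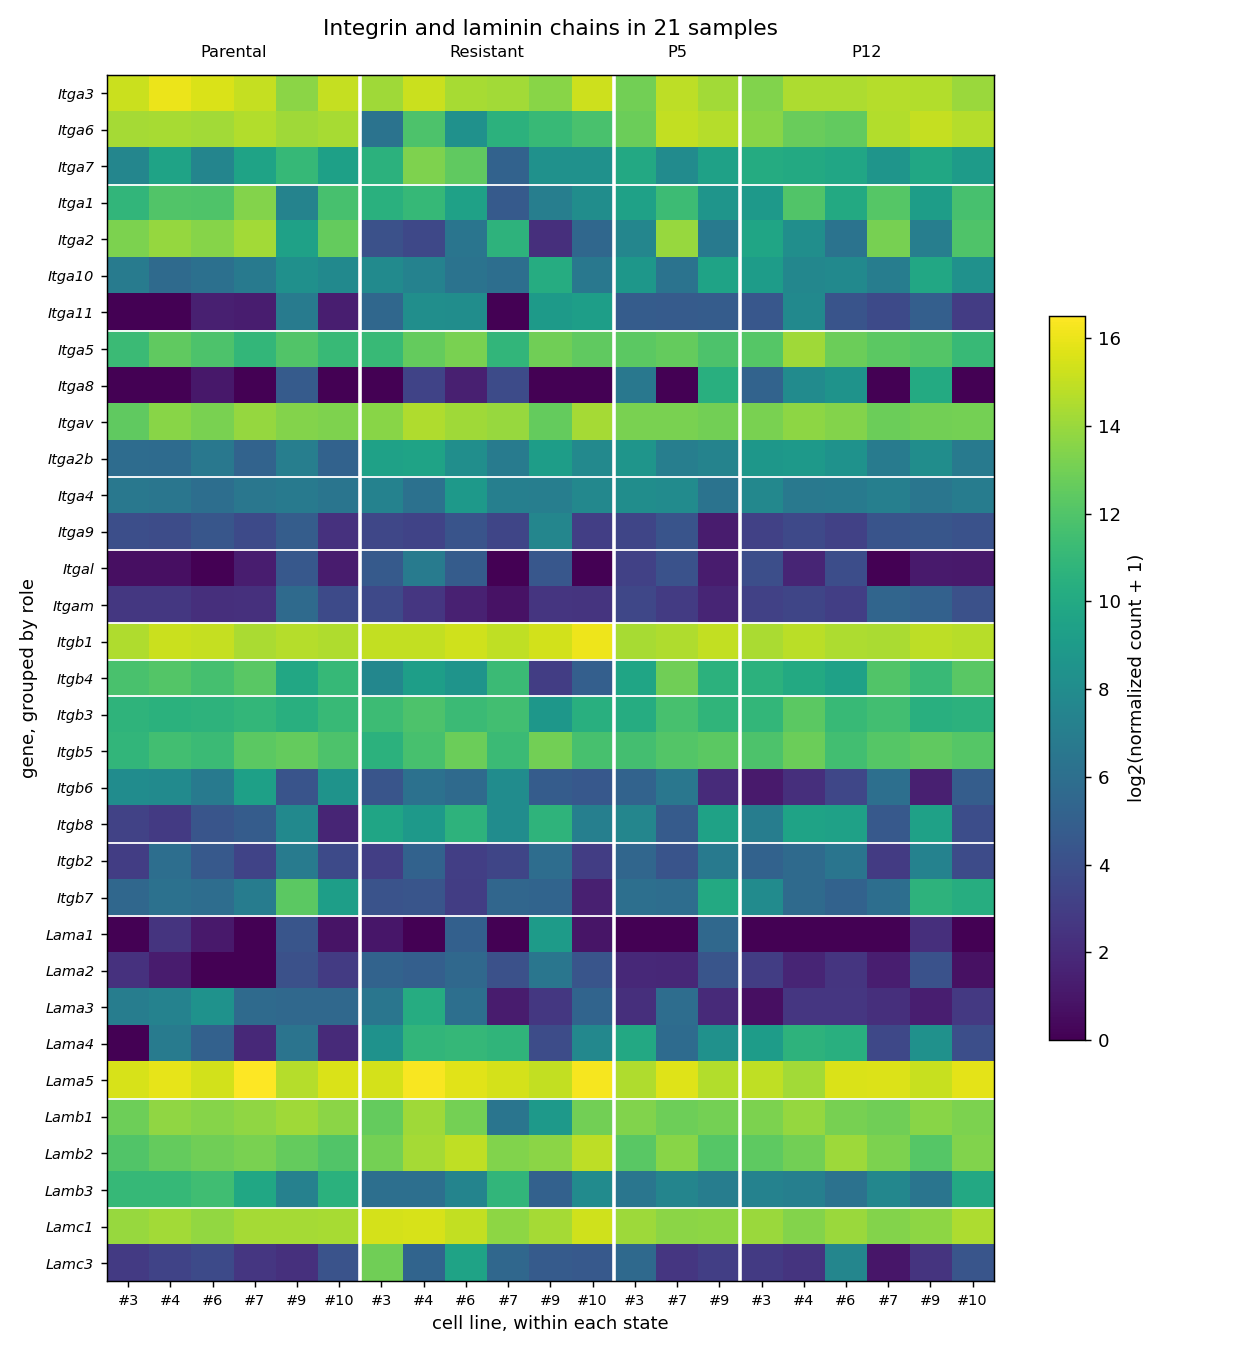
Heat map of log2(normalized count + 1) for 33 expressed integrin and laminin chains (rows, grouped by role with white lines between groups) in 21 samples (columns, by state and cell line; colour scale at the right). Itga3, Itgb1 and Lama5 are bright in every column, Itga6 and Itga2 are darker in the resistant columns, and Itga11, Itga8 and Lama1 are dark in most parental columns.

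Resistant were compared with parental cells to ask which chains change as resistance is acquired. In this comparison 5 of the 34 expressed members were called, meaning an adjusted p under 0.01 together with a log2 difference larger than 1 in size (limma, fitted to all 19300 expressed genes). Itga2b, Itgb8 and Lama2 were higher, where 2.57% of all genes were called higher, and Itga2 and Itga6 were lower, where 2.73% were called lower. Samples of 1 line come from the same tumor, and with the line as a block 9 members passed, against 10.5% of all genes: the same 5, then Lamb2 (higher) and Itgb4, Itgb7 and Lamb3 (lower). Without line #9, whose parental cells stand apart, the same 5 were called, but without line #3 or #4 only Itga6 was, without #6 and #10 there were 2 and 3 calls, and without #7 there were 8. The log2 fold change exceeded 1 in size for 55.9% of members and 27.4% of all genes, and its median was 0.39 and -0.00. These counts include the 7 members, Lama2 and Lamc3 among them, that passed the expression threshold only with states other than parental. Such a filter, which was the same for all genes, favours rises. Lamc3 was higher in every resistant than in every parental sample, as were 2.83% of all genes, and Itga6 and Itgb7 were lower in every resistant sample, as were 3.16%. Differences are log2 differences of normalized counts after adding 1, which understates changes of low genes.

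Itga6, the laminin-binding alpha chain of hemidesmosomes (chr2:71745616-71858416, forward strand, mm10), was the member with the smallest adjusted p. It lay between 17854 and 25273 in parental cells (median 20246) and between 77.6 and 3802 in resistant cells (median 1912). All 6 resistant samples were below all 6 parental samples, with line #3 lowest. Itga6 fell by 4.31 on the log2 scale (SE 0.76, adjusted p = 0.00103) and was lower in 6 of 6 lines, with the smallest difference in line #4 (-2.42). It was called in this comparison in each of 15 alternative analyses. In P12 cells it lay between 5900 and 33559 (median 18733), above every resistant sample. This was a rise of 3.84 over resistant cells (SE 0.76, adjusted p = 0.00461), and the P12 and parental ranges overlapped (log2 fold change -0.46, adjusted p = 0.802). The adjusted p of the rise was above 0.01 without line #3 (0.0108), #6 (0.0177), #7 (0.024), #9 (0.0154) or #10 (0.0156), and in a fit to the compared states alone (0.0433).

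Itgb4, the beta chain that pairs with Itga6 in hemidesmosomes, moved in the same direction. Its parental values were 953 to 5034 (median 3344) and its resistant values 6.87 to 2437 (median 288). Every line was lower in the resistant state, and the groups overlapped through resistant cells of line #7 (2437). The log2 fold change was -4.01 (SE 1.02, adjusted p = 0.0124), which passed the threshold with the line as a block (adjusted p = 0.0043). In P12 cells Itgb4 was 696 to 5067 (median 1938). It was higher than in resistant cells in 6 of 6 lines, by 3.49 (SE 1.02, adjusted p = 0.0462, and 0.0174 with the block). The other laminin-binding chains did not pass: Itga3 had a log2 fold change of -0.62 (adjusted p = 0.299) and Itga7 one of 0.61 (adjusted p = 0.737), with resistant values of Itga7 from 35.8 in line #7 to 9975 in line #4. Per kb, Itga6 amounted to a median of 53.7% of Itga3 in parental, 7.97% in resistant and 98.9% in P12 cells. The ductal markers had a median sum of 248016 in parental, 62680 in resistant and 52763 in P12 cells. Their part in the levels of Itga6 and Itgb4 was not tested.

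Itga2, the alpha chain of the main epithelial collagen receptor (chr13:114833081-114932100, reverse strand), had the most negative log2 fold change of the members. Its parental values were 686 to 18908 (median 10697), and its resistant values 3.74 to 1662 (median 30.3). Resistant cells were lower in each line, and the ranges overlapped only because parental cells of line #9 (686) were below resistant cells of line #7 (1662). Itga2 fell by 7.39 (SE 1.48, adjusted p = 0.00256), with differences of -3.51 to -10.35 within lines. The adjusted p was 0.0238, 0.0219, 0.0126 and 0.0131 without line #3, #4, #6 and #10. In P12 cells Itga2 was 78.6 to 9087 (median 567), highest in lines #7 and #10. Against resistant cells the log2 fold change was 3.98 (SE 1.48, adjusted p = 0.126), which passed with the line as a block (adjusted p = 0.00762), and line #6 did not share the direction (84.8 in resistant, 78.6 in P12 cells). P12 remained below parental cells in 6 of 6 lines, by a log2 fold change of -3.41 (adjusted p = 0.275).

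The other collagen-binding chains showed different patterns. Itga1, whose gene is the next protein-coding gene to Itga2, 20996 bases away on the same strand, was 167 to 10914 in parental and 24.5 to 2096 in resistant cells. It was lower in 6 of 6 lines but did not pass (log2 fold change -2.76, SE 1.05, adjusted p = 0.081). Per kb, Itga2 amounted to a median of 515% of Itga1 in parental cells, 11.5% in resistant and 112% in P12 cells, and in resistant cells of line #7 the order was turned round (10434%). Itga11, a collagen receptor chain of fibroblasts, was 0 to 1.68 in parental cells of 5 lines and 115 in line #9. In resistant cells it was 45.5, 280, 270, 0, 500 and 617 in lines #3, #4, #6, #7, #9 and #10. Its log2 fold change of 4.83 (SE 1.38, adjusted p = 0.023) did not pass, and line #7 did not share it. Fibroblast and pericyte markers summed to 1901 in resistant cells of line #7 and to 577925 in those of line #9, and their part in the level of Itga11 was not tested. Itga10 was 51.2 to 316 in parental and 124 to 937 in P12 cells, higher in 6 of 6 lines (log2 fold change 1.37, SE 0.71, adjusted p = 0.367).

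**Figure D2:**
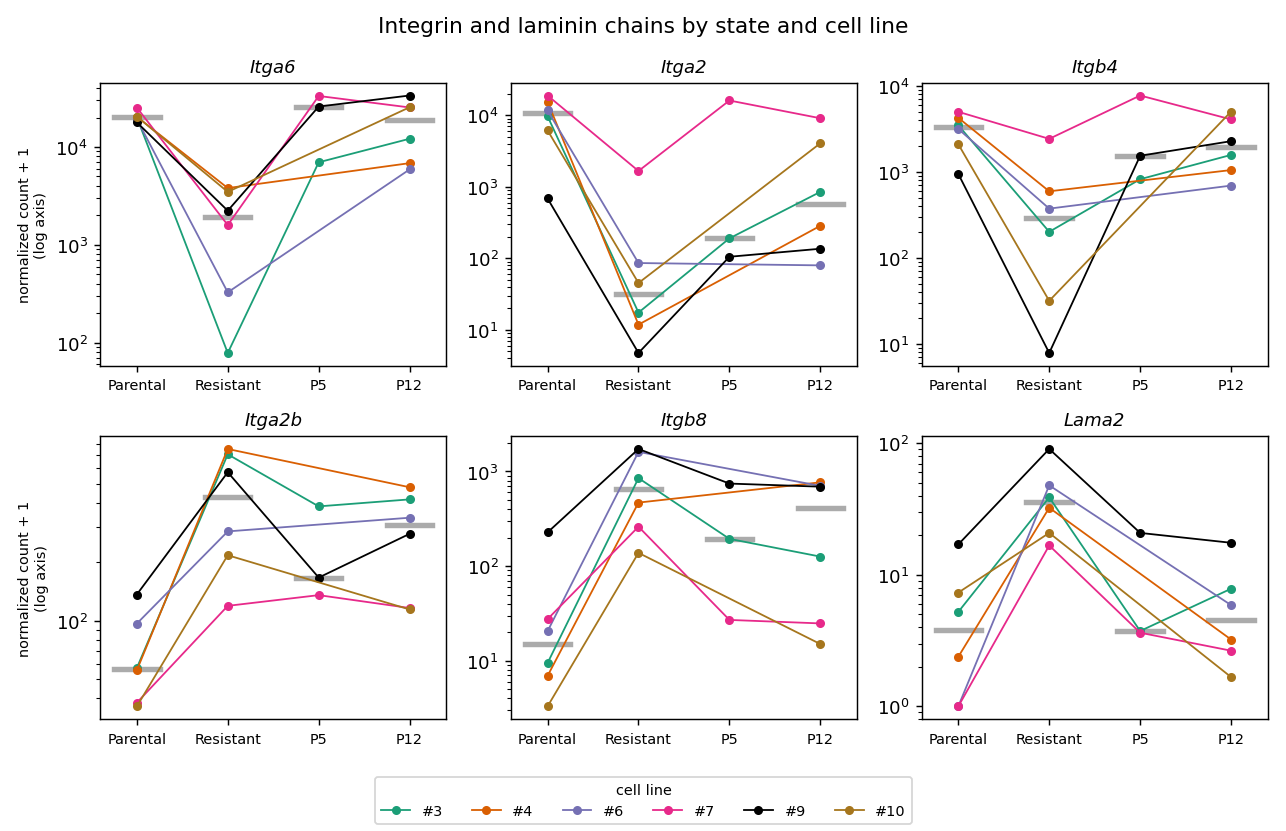
Normalized count + 1 (log axis) of Itga6, Itga2, Itgb4, Itga2b, Itgb8 and Lama2 in parental, resistant, P5 and P12 cells. Points are samples, lines join the samples of a cell line (colours) and grey bars are medians per state. Itga6 and Itgb4 are lowest in the resistant state in every line, their P12 points stay below the parental ones in lines #4 and #6 among others, most P12 points of Itga2 lie between the resistant and parental ones, and Itga2b is above its parental level in P12 cells of all 6 lines.

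Of the RGD-binding alpha chains, 1 of 4 was called higher in resistant cells. This was Itga2b, best known as the platelet fibrinogen receptor chain (chr11:102453297-102470122, reverse strand). Parental cells had 35.4 to 135 (median 55.5) and resistant cells 118 to 754 (median 429). The groups overlapped only between parental cells of line #9 (135) and resistant cells of line #7 (118). Itga2b rose by 2.54 (SE 0.51, adjusted p = 0.00247) and was higher in 6 of 6 lines. The adjusted p was 0.0193 without line #3 and 0.0175 without line #4. In P12 cells it was 113 to 480 (median 306), and it was 383, 134 and 165 in P5 cells of lines #3, #7 and #9. P12 exceeded parental cells in 6 of 6 lines, with a log2 fold change of 2.01 (SE 0.51, adjusted p = 0.0738) that passed with the line as a block (adjusted p = 0.00672). Itga5, the main fibronectin receptor chain, and Itgav, the partner of several beta chains, were high throughout and did not pass (log2 fold changes 0.59 and 0.54, adjusted p = 0.421 and 0.197).

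The beta chains that pair with Itgav differed among themselves. Itgb8, which with Itgav can activate latent TGF-beta (chr12:119158022-119238802, reverse strand), was 2.29 to 226 in parental cells (median 14) and 137 to 1728 in resistant cells (median 659). Line #9 was highest in both states, and resistant cells of line #10 (137) were below parental cells of line #9 (226). Itgb8 rose by 5.07 (SE 1.16, adjusted p = 0.00652), in 6 of 6 lines and by 2.93 to 6.49. The adjusted p was 0.0488, 0.0294, 0.034 and 0.012 without line #3, #4, #6 and #10. After 12 drug-free passages Itgb8 was 23.8 in line #7 and 14 in line #10, and 125 to 767 in the other lines. Against parental cells the log2 fold change in P12 was 3.21 (SE 1.16, adjusted p = 0.197, and 0.0214 with the block).

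Itgb6, an epithelial chain that with Itgav also activates latent TGF-beta, was 18.5 to 671 in parental cells (median 250), 19.7 to 265 in resistant cells (median 39) and 1.29 to 63.2 in P12 cells (median 7.11). Line #7 was highest in all 3 states. The difference between resistant and parental cells did not pass (log2 fold change -1.87, SE 0.99, adjusted p = 0.216). P12 cells were lower than parental cells in 6 of 6 lines, with a log2 fold change of -4.27 (SE 0.99, adjusted p = 0.0506) that passed with the line as a block (adjusted p = 0.0031). Itgb3 and Itgb5 were expressed in every sample and had log2 fold changes of 0.13 and 0.11 between resistant and parental cells (adjusted p = 0.876 and 0.882). Itgb1, the common partner, was 21446 to 36689 in parental, 30889 to 68251 in resistant and 21437 to 29563 in P12 cells. It was lower in all P12 than in all resistant samples, by a log2 fold change of -0.68 (SE 0.19, adjusted p = 0.036), a size below the threshold of 1.

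The integrin chains of leukocytes were low in most samples. Itgb7, a lymphocyte homing chain, was the exception, with 5133 in parental cells of line #9, 597 in line #10 and 44.5 to 121 in the other lines. Its resistant values were 1.7 to 43.1, all below the lowest parental value. The log2 fold change was -3.71 (SE 1.22, adjusted p = 0.0446), and it passed with the line as a block (adjusted p = 0.00705). In P12 cells Itgb7 was 34.8 to 1603, again highest in lines #9 and #10. Itga4, which can pair with Itgb7, was 61.4 to 107 in parental and 70.3 to 461 in resistant cells (log2 fold change 0.91, adjusted p = 0.113). Itgb2, Itgal and Itgam reached at most 158, 115 and 52, and none of the 3 passed. Cd3e, a T cell marker, was at 0 in 4 of 6 parental and 4 of 6 resistant samples, and at most 4.6 in parental, resistant or P12 cells.

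Among the laminin alpha chains, Lama2, the chain of muscle and stromal basement membranes (chr10:26980036-27619758, reverse strand), was called higher in resistant cells. It was near the detection limit in parental cells, with 0 to 16 (median 2.80), and 15.7 to 89.3 in resistant cells (median 34.5). It was higher in 6 of 6 lines, and resistant cells of line #7 (15.7) lay just below parental cells of line #9 (16). Lama2 rose by 3.37 (SE 0.74, adjusted p = 0.00479), and the adjusted p was 0.0243, 0.0265, 0.0388 and 0.0132 without line #3, #4, #6 and #7, and 0.0103 in a fit to the compared states alone. In P12 cells it was 0.67 to 16.5 and lower than in resistant cells in 6 of 6 lines. This log2 fold change of -2.89 (SE 0.74) had an adjusted p of 0.0231 and passed with the line as a block (0.00206). Lama4, a chain of vessels and mesenchyme, was 0 to 116 in parental, 13.5 to 2060 in resistant and 11.1 to 1618 in P12 cells. Its log2 fold changes against parental cells were 5.06 in resistant (SE 1.53, adjusted p = 0.0306) and 3.98 in P12 cells (SE 1.53, adjusted p = 0.218), and neither passed. Lama4 was higher in resistant than in parental cells of 5 of 6 lines, with line #9 the exception (79.8 in parental, 13.5 in resistant cells). In P12 cells it was above the parental value in 6 of 6 lines. The fibroblast and endothelial marker sums given above reached higher maxima in resistant than in parental cells. The median log2 fold change over the expressed genes was 2.91 for the fibroblast and pericyte list and -0.15 for the endothelial list. The part of these markers in Lama2 and Lama4 was not tested.

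Lama5 was the highest laminin chain in parental and P12 cells and differed little between states (log2 fold change 0.12 for resistant and -0.38 for P12 against parental cells, adjusted p = 0.848 and 0.59). Lamb2 and Lamb1 are alternative beta chains. Lamb2 was 4114 to 9354 in parental cells (median 6243) and 8668 to 31257 in resistant cells (median 16363). It was higher in 6 of 6 lines, with an overlap only between resistant cells of line #3 and parental cells of line #7, and its log2 fold change was 1.47 (SE 0.37, adjusted p = 0.0123, and 0.00125 with the block, which passed). Lamb1 was 7526 to 18482 in parental cells, and in resistant cells it was 86.1 in line #7, 482 in line #9 and 6274 to 18542 in the other lines (log2 fold change -2.26, SE 0.90, adjusted p = 0.0945). Per kb, Lamb2 amounted to a median of 50.8% of Lamb1 in parental, 378% in resistant and 84.4% in P12 cells. Lamc1, the common gamma chain, was 14243 to 21113 in parental, 13230 to 45817 in resistant and 11007 to 22274 in P12 cells. It was lower in P12 than in resistant cells of all 6 lines, by a log2 fold change of -1.03 (SE 0.26, adjusted p = 0.0216) that passed with the line as a block (adjusted p = 0.00905). Lamc3, a gamma chain of a few tissues, was 3.85 to 17.5 in parental and 23.2 to 7873 in resistant cells, with line #3 far above the rest (log2 fold change 3.97, SE 1.27, adjusted p = 0.0392).

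Lama3 and Lamb3, chains of laminin-332, were lower in P12 than in parental cells of all 6 lines, though neither passed the threshold for that comparison. Lamb3 was 152 to 2842 in parental cells (median 1808), 33.2 to 1859 in resistant cells (median 118) and 73 to 993 in P12 cells (median 147). Resistant were below parental cells in 5 of 6 lines, with line #7 the exception (904 in parental, 1859 in resistant cells), and the log2 fold change of -2.97 (SE 0.86, adjusted p = 0.025) passed with the line as a block (adjusted p = 0.00959). Lama3 was 46.5 to 346 in parental cells (median 89.8), 1.39 to 1204 in resistant cells (median 50.8) and 0.622 to 5.81 in P12 cells (median 4.37). All P12 samples were below all parental samples and near the level of 3 reads. Against parental cells, the P12 log2 fold changes of Lama3 and Lamb3 were -4.55 and -2.76 (SE 1.11 and 0.86). Their adjusted p were 0.0655 and 0.132, and 0.0219 and 0.0462 with the line as a block.

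**Figure D3:**
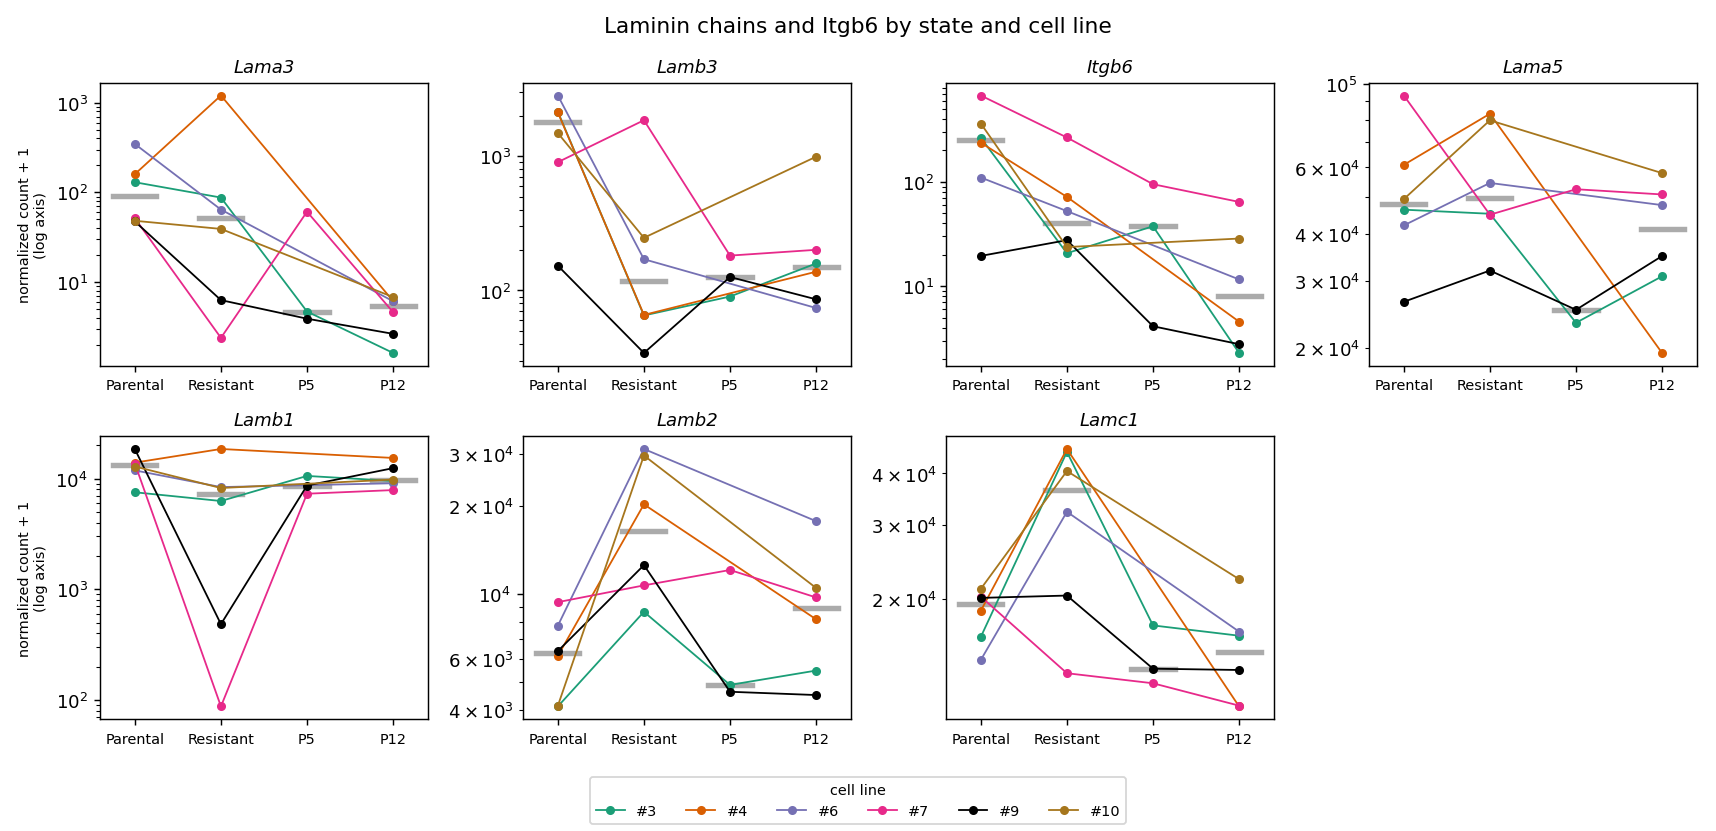
Normalized count + 1 (log axis) of Lama3 and Lamb3, of Itgb6 and of the chains Lama5, Lamb1, Lamb2 and Lamc1 in parental, resistant, P5 and P12 cells. Points are samples, lines join the samples of a cell line (colours) and grey bars are medians per state. The medians of Lama3, Lamb3 and Itgb6 are lower in P12 than in parental cells, while Lama5 stays between 19404 and 92962 in the parental, resistant and P12 samples.

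Drug withdrawal was examined by comparing P12 with resistant and with parental cells; these comparisons share their samples with each other and with the first. Against resistant cells, 1 of 34 members was called, Itga6 (higher), and 0 were called without line #3, #6 or #10, with 15 of 34 members at an unadjusted p below 0.05 with all lines. Of all genes 1.28% were called higher and 0.850% lower, and 3821 of 19300 had an unadjusted p below 0.05. With the line as a block 4 members passed, against 4.52% of all genes: Itga6 and Itga2 (higher) and Lama2 and Lamc1 (lower). Itga6 was higher in all P12 than in all resistant samples, as were 1.39% of genes, and Itgb1 was lower in all, as were 1.06%. Against parental cells, limma called 0 members, with 10 at an unadjusted p below 0.05. Over all genes 0.0259% were called higher and 0.0881% lower, and 2953 of 19300 had an unadjusted p below 0.05. With the line as a block 2 passed, Itga2b (higher) and Itgb6 (lower), against 0.523% of all genes. In 6 of 6 samples Lama3 was below every parental sample, as were 0.731% of all genes, and 0 members were above every parental sample, as were 0.793%. Itga8, an RGD-binding chain of mesenchyme, was listed at 0 or up to 1.05 in parental cells of 5 lines and 26.2 in line #9. In resistant cells it was 0 to 12.4, highest in line #7. In P12 cells it reached 1101, was at least 10 in 4 of 6 lines and was 0 in lines #7 and #10 (log2 fold change 4.34, SE 1.79, adjusted p = 0.252).

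**Figure D4:**
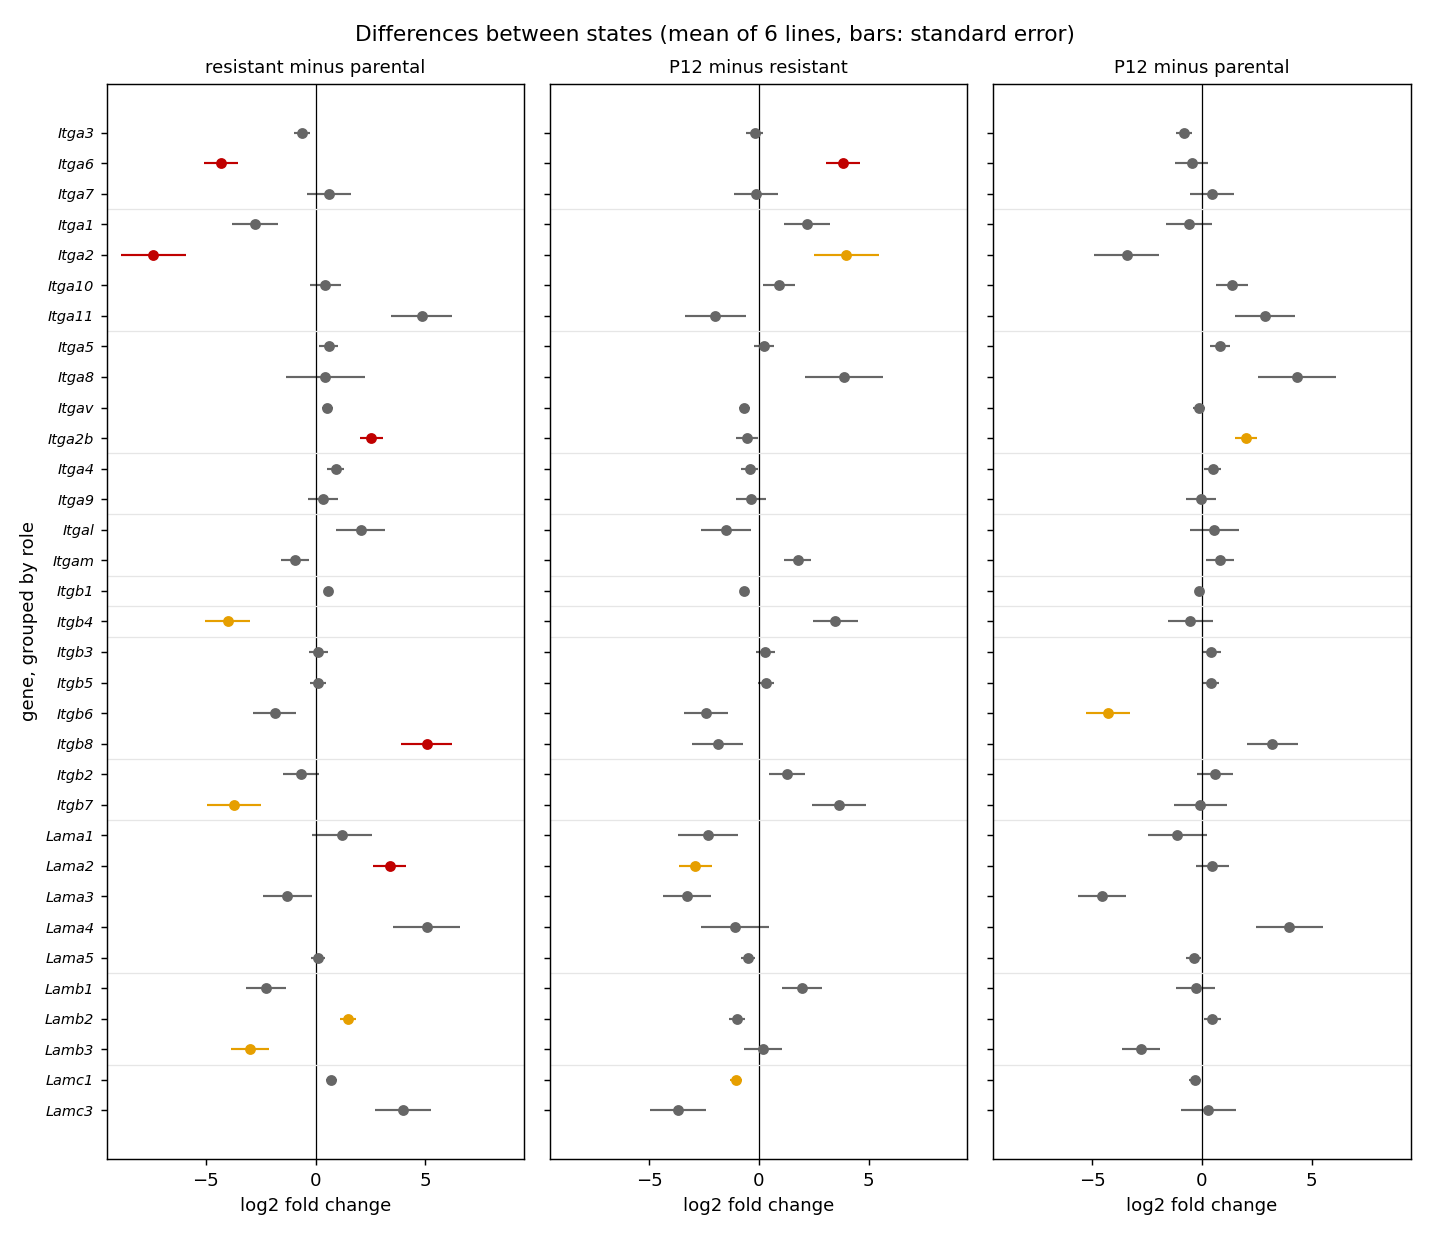
Log2 fold change (x axis; points: mean difference over 6 lines, bars: standard error) of 33 expressed members, grouped by role, for resistant minus parental, P12 minus resistant and P12 minus parental cells. Red marks members past the threshold, orange those past it only with the cell line as a block, and grey the rest. Itga2, Itga6, Itga2b, Itgb8 and Lama2 are red at the left, Itga6 alone in the middle, and no member at the right.

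P5 cells were available for 3 lines. Itga6 was 6972, 33191 and 25889 in lines #3, #7 and #9, each above the resistant sample of its line (77.6, 1592 and 2232). Itga2 was 189, 16101 and 104, and Itgb4 was 826, 7785 and 1549, so line #7 was highest for both. Lama2 was 2.74, 2.63 and 19.8, below the resistant samples of these lines (37.7, 15.7 and 89.3). Lama3 was 3.70, 60 and 2.91, and Itgb6 was 36.5, 93.9 and 3.13. Limma called 0 members against resistant and 0 against parental cells, with and without the line as a block, with 10 members at an unadjusted p below 0.05 in each comparison without it. The shares of all genes called were 0.378% and 0.0259%, and 2976 and 2003 of 19300 genes had an unadjusted p below 0.05. For Itga6, the log2 difference between P5 and resistant cells was 4.14 (SE 0.93, adjusted p = 0.0243).

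Promoter sequence is shown for the called members that a RefSeq table of the GRCm38.p6 build covers, with the 250 bases before the annotated start site, and CpG dinucleotides, the sites of DNA methylation, in capitals. All promoters of the table had a median of 6 CpG in this stretch (quartiles 2 and 16). Itga2 (chr13:114932101-114932350, reverse strand) and Itgb8 (chr12:119238277-119238526, reverse strand) held 12 each, Itga2b (chr11:102469884-102470133, reverse strand) held 2 and Lama2 (chr10:27616943-27617192, reverse strand) held 0. Itga2 was lower and Itgb8 higher in resistant cells, and a link between the number of CpG and the change was not tested. RefSeq places the start used here inside the gene as GENCODE draws it for Itgb8, Lama2 and Itga2b, and at the GENCODE start for Itga2. The stretches of Itgb8 and Lama2 thus lie wholly inside the gene, and that of Itga2b nearly so. Other starts of Itgb8, Lama2 and Itga2b are not shown.
Itga2: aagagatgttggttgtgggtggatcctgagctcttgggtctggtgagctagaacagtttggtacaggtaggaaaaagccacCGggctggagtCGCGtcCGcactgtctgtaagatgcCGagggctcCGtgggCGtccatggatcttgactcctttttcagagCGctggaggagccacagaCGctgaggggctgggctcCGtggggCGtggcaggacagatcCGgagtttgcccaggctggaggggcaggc
Itgb8: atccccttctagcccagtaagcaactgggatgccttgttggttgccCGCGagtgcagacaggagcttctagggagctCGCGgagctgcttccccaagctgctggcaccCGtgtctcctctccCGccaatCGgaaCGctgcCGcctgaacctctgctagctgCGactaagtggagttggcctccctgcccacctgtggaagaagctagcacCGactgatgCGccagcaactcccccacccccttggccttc
Itga2b: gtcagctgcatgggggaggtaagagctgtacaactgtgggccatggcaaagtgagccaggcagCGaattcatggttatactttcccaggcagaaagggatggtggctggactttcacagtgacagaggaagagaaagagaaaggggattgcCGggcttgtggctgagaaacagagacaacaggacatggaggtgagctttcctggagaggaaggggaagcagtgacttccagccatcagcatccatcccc
Lama2: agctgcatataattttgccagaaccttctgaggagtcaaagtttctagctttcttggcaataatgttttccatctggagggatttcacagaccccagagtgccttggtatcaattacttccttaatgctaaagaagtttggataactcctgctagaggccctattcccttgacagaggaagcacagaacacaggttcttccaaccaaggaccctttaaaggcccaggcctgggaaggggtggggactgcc

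In windows of 300 bases, from 250 before to 50 after the start site, 3 motifs were searched on both strands in 24 member genes and in all 32851 promoters. TGACTCA, the AP1 motif, was found in 2 member genes, Itga9 and Itgax, and in 5.2% of all promoters. The Itga9 window (from chr9:118711442) lies well inside the gene as GENCODE draws it (from 118606690), and Itgax stayed below the expression threshold. CCGGAAGT, an ETS motif, was found in 0 member genes and 3.89% of promoters. GGAATG, the TEAD motif, was found in 3 member genes, Itga10, Itgb1 and Lamb3, and in 14.7% of promoters. The ETS and TEAD motifs share the letters GGAA but differ in the base that follows. A match is a description of the letters only. Lamb3 has 2 annotated windows, both well inside the gene as GENCODE draws it, and is shown for the one with the motif, read on the opposite strand and in capitals (chr1:193301993-193302242, forward strand).
Lamb3: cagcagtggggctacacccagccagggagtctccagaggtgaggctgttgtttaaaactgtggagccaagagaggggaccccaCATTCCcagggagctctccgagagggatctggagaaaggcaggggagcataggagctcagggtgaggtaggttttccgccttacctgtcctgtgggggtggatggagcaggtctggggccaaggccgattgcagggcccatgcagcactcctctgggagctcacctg

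Genes that work with integrins and laminins were counted from lists of textbook members. Of 44 genes of the integrin adhesion complex, 4 were higher and 2 lower in resistant than in parental cells (6 and 3 with the line as a block). Over all genes 2.57% were called higher and 2.73% lower, and 10.5% either way with the block. An unadjusted p below 0.05 was found for 5642 of 19300 genes. The counts of all 4 lists in this comparison are to be read against these shares. The higher genes were Tns1 (log2 fold change 3.60, SE 0.82, adjusted p = 0.00616), Fermt2 (1.98, SE 0.47, adjusted p = 0.00778), Zyx and Tns3, which link integrin tails to actin, and the lower ones Vasp and Dock1. The median log2 fold change of the list was 0.12, against -0.00 over all genes. Of 25 basement membrane partners of laminin, 5 were higher and 2 lower (7 and 4 with the block), and the median was 0.98. Fras1 (log2 fold change 6.90), Col4a4 (6.43) and Sparc (5.21) were the largest rises, and Npnt, an integrin ligand of basement membranes (-4.23), and Col18a1 (-2.97) fell. Sparc was higher in 6 of 6 lines and Fras1 in 5 of 6. Of 29 expressed integrin ligands 0 were higher and 4 lower (2 and 6 with the block, 12 at an unadjusted p below 0.05), the largest falls being Spp1, which encodes osteopontin (-7.18, SE 0.86, adjusted p = 3.53e-05), Edil3 (-5.61) and Npnt. Of 13 genes of hemidesmosomes and other laminin receptors 1 was lower, the tetraspanin Cd9 (-1.82, SE 0.35, adjusted p = 0.00175), and 0 were higher, with 5 of 13 at an unadjusted p below 0.05. With the block 1 was higher, the tetraspanin Cd81 (1.10, block adjusted p = 0.00754), and 1 lower. Between P12 and resistant cells 1.28% of all genes were called higher and 0.850% lower, and 4.52% either way with the block. An unadjusted p below 0.05 was found there for 3821 of 19300 genes. In this comparison 1 basement membrane partner was higher, Npnt (2.56), and 4 were lower (1 and 5 with the block). The largest falls were in Col4a4 (-8.60), Col4a3 (-6.59) and Fras1 (-6.32). Of the ligands 4 were higher and 0 lower (5 and 1 with the block, 10 at an unadjusted p below 0.05), with Spp1 (6.94), Edil3 (5.07) and Npnt at the head. Of the adhesion complex 0 were higher and 1 was lower, Tns3 (-1.34), against 1 and 2 with the block and 14 at an unadjusted p below 0.05. Of the hemidesmosome list 1 was higher, Cd9 (1.89), and 0 were lower (1 and 1 with the block, 5 at an unadjusted p below 0.05). Between P12 and parental cells, limma called 0 genes in each of these 4 lists, with and without the block. Of all genes 0.0259% were called higher and 0.0881% lower, and 0.523% either way with the block. An unadjusted p below 0.05 was found for 2953 of 19300 genes. At an unadjusted p below 0.05 there were 11 of the adhesion complex, 3 basement membrane partners, 2 ligands and 1 of the hemidesmosome list.

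The spread of each member over parental, resistant and P12 samples was split between lines, states and the rest. The median share was 29.1% between lines and 35.1% between states for the members, and 35.8% and 19.8% for all expressed genes. Lines outweighed states in 13 of 34 members and in 67.1% of all genes. The shares are of sums of squares, and having more lines than states gives lines a larger share even in pure noise. A line share above a state share therefore does not by itself show a line effect, and members are to be read against all genes. State shares were highest for Itga6 (68.7%, with 13.6% between lines) and Itga2 (62.9%, with 25.5%). Line shares were highest for Itgb2 (72.7%, with 12.4% between states) and Itga10 (62.8%, with 20.5%). Itgb3 and Itgb5 had small state shares (5.92% and 7.23%), with 54.4% and 47.8% between lines and 39.6% and 44.9% in the rest. Without line #9 the median shares were 22.8% between lines and 47.4% between states. Parental cells of line #9 had the lowest Itga2, Itga6, Itgb4, Itgb6, Lama3 and Lamb3 of the parental samples, and the highest Itga2b, Itgb7, Itgb8, Itga11, Itga8 and Lama2. Ductal markers summed to 18363 in these cells, the lowest parental value, and fibroblast and pericyte markers to 26006, the highest, and their part in these levels was not tested.

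**Figure D5:**
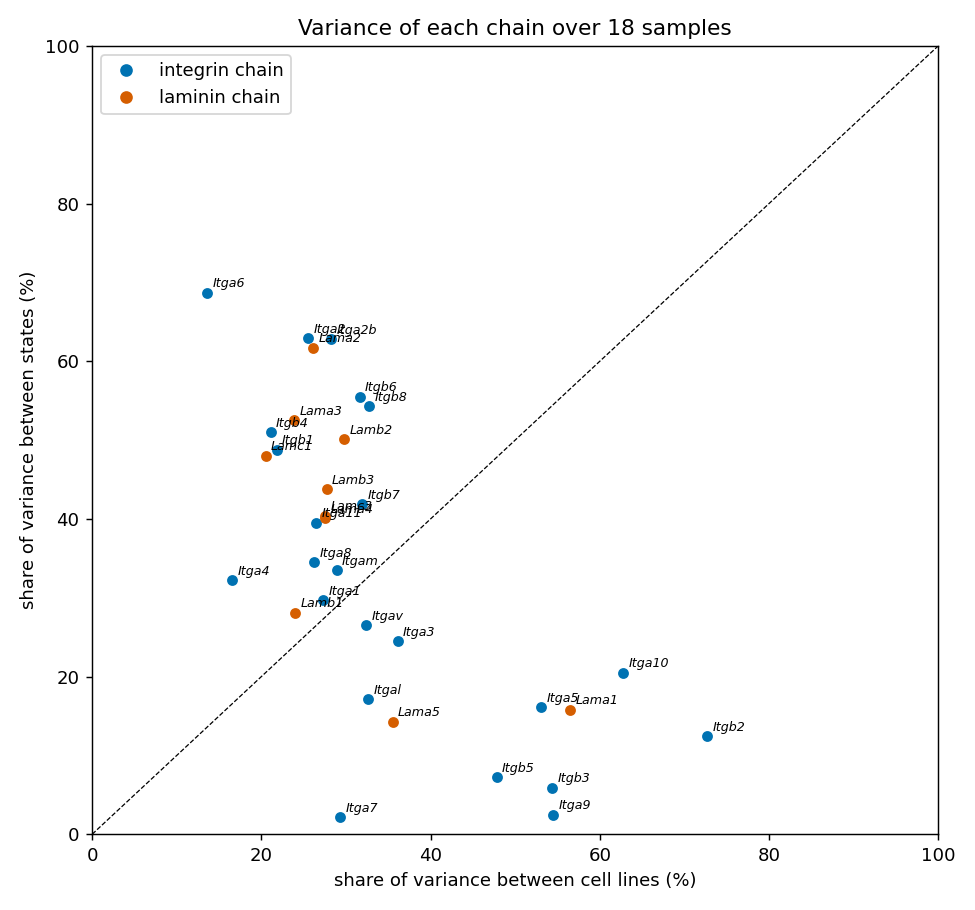
Share of the variance of log2 values between cell lines (x axis, %) and between states (y axis, %) for 33 expressed members over 18 parental, resistant and P12 samples. Blue points are integrin and orange points laminin chains, and on the dashed diagonal both shares are equal. Itga6, Itga2 and Lama2 lie far above the diagonal, and Itgb2, Itga9 and Itgb3 far below it.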

How the data were processed

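RNA of 21 cultures of 6 PDAC lines was sequenced by the authors as stranded mRNA libraries. As deposited, the table holds normalized gene counts (unit: signal), which the authors made from reads demultiplexed with CASAVA 2.17 and bcl2fastq 2.19, quantified with Salmon 0.12 on mm10 and scaled with DESeq2 1.18. Raw counts were not used here. Values are therefore relative to each library's size factor, and a change in total RNA per cell is not seen.

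Groups came from the sample labels. Members were chosen by symbol, and 1 of them is counted but not reported here. The members and gene lists were chosen with earlier results of these data known, so no pattern here is independent support for those results. The 19300 of 34478 genes that reached 10 in 3 or more samples were fitted in R 4.3.3 with limma 3.58.1 on log2(value + 1), using all 21 samples, 4 states and eBayes with a trend, with Benjamini-Hochberg adjustment. Lines pair the samples because each was derived from 1 mouse tumor. Mean correlations of deviations from the state mean were 0.241, 0.457 and 0.316 for the same line (parental and resistant, P12 and resistant, P12 and parental), with a lowest value of 0.00819, and -0.0462, -0.0903 and -0.0645 for different lines. The fit with the line as a block is given where it changes a call. Since each line gives 1 sample per state, p-values measure the spread between lines. By rule, members called in a comparison of parental, resistant and P12 cells, with or without the block, are given in full, the others by ranges and counts with the highest chain of each role as example, and at most the 3 largest rises and falls of each pathway list are named. Itga1, Itga4, Itga7, Itga8, Itga10, Itga11, Itgb2, Itgal, Itgam, Lama3, Lama4, Lamb1, Lamc3 and Tns3 were named after their values were seen. Tested on simulated data for resistant against parental cells, the fit recovered 172 of 200 changed genes among 19300, 80 with a log2 change of 3 and 92 with one of 6, with 1 false call. The simulated noise was normal and independent between samples, so samples of a line shared no deviation, and changes were placed only in genes with higher mean values. The test therefore does not cover correlated lines or low genes such as Lama2. Lengths and positions are from GENCODE (mm10) and promoters from RefSeq (GRCm38.p6), where 24 of 38 members matched. Software was Python 3.11.15, pandas 2.3.3 and matplotlib 3.10.9. The sequencers were not assigned to samples in the labels, so no batch could be compared.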

Additional observations from a re-analysis of the deposited data

Results flagged for a closer look

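A sample standing far from the other 5 of its state was seen in 6 of 99 sets of 6 values (33 members in 3 states). Chance gives about 1 in 20 for independent normal values. That rate is only a guide, since the sets share samples and the other lines were at or near 0 for Itga11, Itga8, Itgal and Lama1. Each of the 6 was in line #9, 4 in parental, 1 in resistant and 1 in P12 cells. Such samples were not counted over all genes, so this cannot be called particular to the members. In parental cells of line #9, Itga2 was 686 (6155 to 18908 in the other lines), far below the rest. In the same cells Itga11 was 115 (0 to 1.68 in the other lines), Itga8 was 26.2 (0 to 1.05) and Itgal was 22.6 (0 to 1.45), all far above it. In resistant cells of line #9, Itga9 was 186 (7.37 to 18.3 in the other lines). In P12 cells Lama1 was 3.61 in line #9 and 0 in the other lines, a value within the 2.31 to 4.07 that correspond to 3 reads. Ductal markers were lowest in line #9 in each of these states, and their part in these values was not tested. Without line #9, 5 members were called between resistant and parental cells, 1 between P12 and resistant cells and 0 between P12 and parental cells (limma). For the last comparison 10 of 34 members had an unadjusted p below 0.05 with all lines, against 2953 of 19300 genes.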

How the results depend on the processing

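Of the members, 5 were called between resistant and parental cells, against 9 with the line as a block, 12 at an adjusted p below 0.05, and 1 to 8 when a line was left out (1 without #3 or #4, 8 without #7). Between P12 and resistant cells 1 was called, against 2 with a pseudocount of 8, 4 with the block, 4 at an adjusted p below 0.05, 0 in a fit to the compared states alone and 0 to 1 when a line was left out. The 1 member called without line #7 was Lamc1 and without line #9 Lama2, not Itga6. Between P12 and parental cells 0 were called, against 2 with the block and 1 (Lama3) in a fit to the compared states alone. Between P5 and resistant cells 0 were called, against 1 (Itga6) at an adjusted p below 0.05.

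Over all genes, 1023 were called between resistant and parental cells, against 2017 with the block, 2190 at an adjusted p below 0.05 and 456 to 1239 when a line was left out. Between P12 and resistant cells 412 were called, against 872 with the block, 947 at an adjusted p below 0.05, 93 in a fit to the compared states alone and 132 to 459 without a line. Between P12 and parental cells 22 were called, against 5 among genes with a mean of at least 100, 101 with the block, 116 at an adjusted p below 0.05, 12 in a fit to the compared states alone and 4 to 68 without a line. The median share of a member's variance was 22.8 to 33.3% between lines and 32.5 to 47.4% between states when a line was left out. The causes of these changes were not tested, beyond the fewer samples of a fit without a line. No direction was reversed under these alternatives. Of 6 single-member calls, Itga6 between resistant and parental cells was called in all 15 alternatives (adjusted p 0.000263 to 0.00808, limma). Over 89 repeats of these 6 calls, 68 kept the call and 21 did not. The fit without P5 of lines #7 and #9 was chosen after seeing the data and gave 5, 1 and 0 called members in the 3 comparisons. Values below about 4.07 normalized counts, such as those of Itga11 in 5 of 6 and Lama2 in 3 of 6 parental samples, are limited by depth.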
